A study of Mus musculus with 24 samples.

Results

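The hearts compared here are those of control mice, 4 taken at day 10 (D10) and 4 at day 21 (D21) after the first injection, and every gene was tested that reached 10 reads in 4 or more of these 8 hearts. This rule kept 15063 of the 41388 genes in the count table, of which 27304 had a read in any of the 24 hearts of the series. The mice were male wild type Balb/c (substrain BALB/cAnNCrl), immunized at 8 to 10 weeks of age. Control mice received an emulsion of PBS in supplemented complete Freund's adjuvant (SCFA, oil with killed mycobacteria) on days 0 and 7, and pertussis toxin (PTX) on day 0. Mice with experimental autoimmune myocarditis (EAM) received the same adjuvant, toxin and days with a cardiac myosin peptide in the emulsion, and each of D10, D15 and D21 had 4 control and 4 EAM hearts. The control hearts are therefore adjuvant-treated hearts and not untreated hearts, and D10 lies 3 days after the second injection. RNA came from a portion of each heart, and the sources used here do not give which chambers a portion held.

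The 8 libraries held 16578239 to 22859202 counted reads, and 19535 to 20721 genes had a read in each. Levels are given as CPM, the reads of a gene per 1000000 counted reads after TMM normalization of the 24 libraries, always in the order of replicates 1 to 4. Fold changes are log2 values of D21 against D10 from edgeR's quasi-likelihood test on the 8 libraries, with the Benjamini-Hochberg adjusted p over all 15063 genes as FDR. A gene is called here at an FDR under 0.01 with at least a 2-fold change, the limits the study used, and a wider rule takes an FDR under 0.05 with no fold limit. Mitochondrially encoded genes took 6.55 ± 0.764% of the counts at D10 and 5.56 ± 0.161% at D21 (mean ± SD, n = 4 hearts each). That difference gave an exact two-sided permutation p of 0.0286, the smallest that 4 against 4 hearts allow, and 0.0858 after adjustment over the 6 library measures tested.

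Adjuvants of this kind cause a systemic inflammatory reaction, in which the liver and other tissues raise acute phase proteins and the marrow releases neutrophils and platelets. Atrial muscle differs from ventricular muscle in its myosin light chains, in the natriuretic peptide it stores and in its ion channels, so its transcripts mark atrial tissue in a piece of heart. The surface of the heart carries a mesothelium, the epicardium, with a keratin and uroplakin repertoire of its own. In a bulk sample, fewer cells of a type and less RNA per cell cannot be told apart.

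Of the 15063 genes tested, 160 (1.06%) were called, 116 higher at D21 (0.77%) and 44 lower (0.292%). The wider rule took 1334 genes (8.86%), 782 higher (5.19%) and 552 lower (3.66%). An unadjusted p under 0.05 was reached by 4031 genes (26.8%), 2207 higher (14.7%) and 1824 lower (12.1%). The median log2 fold change over all genes was 0.0033, and the biological coefficient of variation had a median of 9.10%. All 116 higher genes and 43 of the 44 lower genes had the 4 hearts of one day entirely on one side of the 4 hearts of the other. Over all genes tested, 9.13% did not overlap with D21 higher and 7.83% with D21 lower. Called genes that reached 10 reads in hearts of 1 day only numbered 21 of the 116 higher and 5 of the 44 lower, and their direction was fixed by that filter. The highest fold changes included those of the atrial gene Bmp10 and the mesothelial genes Lrrn4, Msln and Upk3b, and the lowest those of Saa3 and the platelet genes Gp9, Treml1 and Ppbp, as the plot of all fold changes shows. Without any one library in turn, 56 to 150 genes were called, fewest without D21 replicate 3. A fit of the 12 control hearts of D10, D15 and D21 added the atrial list's level as a term, chosen after seeing the data. In it edgeR called 0 genes (0.0%) between D21 and D10, and 1093 had an unadjusted p under 0.05. That level, a mean log2 CPM, was 4.304 to 5.696 in the D10 hearts and 7.697 to 8.403 in the D21 hearts. The day and that level can hardly be separated in this fit, so the loss of calls decides nothing about single genes.

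**Figure D1:**
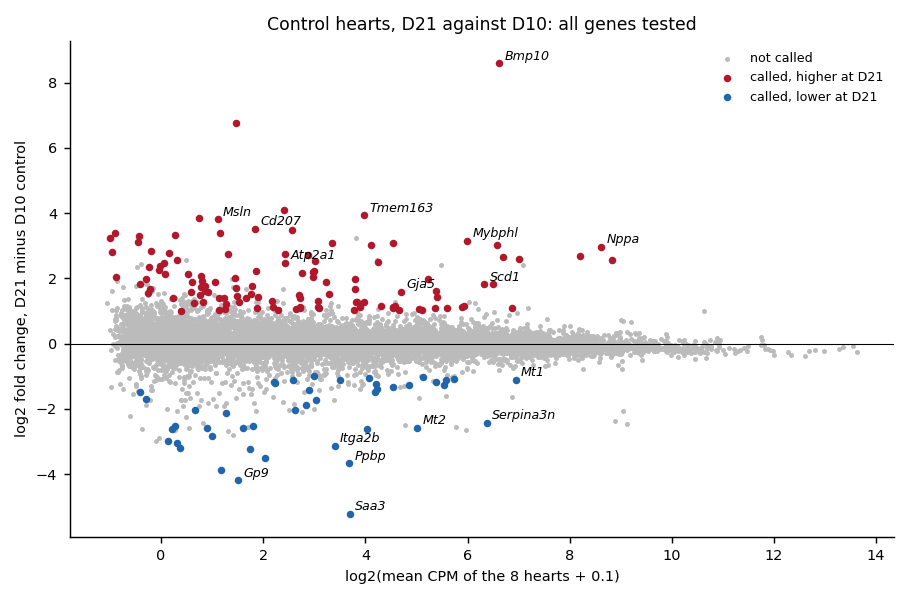
Each point is 1 of the 15063 genes tested, with log2(mean CPM of the 8 hearts + 0.1) across and the fitted log2 fold change of D21 against D10 control hearts upwards, and the called genes in red (higher) and blue (lower). Bmp10 stands highest at 8.60, and Saa3 lowest at -5.23.

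Transcripts of atrial muscle were higher at D21, and Bmp10 had the largest fold change of all genes tested. Of the 8 genes of the atrial list, chosen with earlier results of these data known, 7 were called higher at D21, against 0.77% of all genes. The groups of these 7 did not overlap, which held for 9.13% of all genes with D21 higher. The list's median log2 fold change was 2.62, against 0.0033 over all genes. These 7 calls stayed 7 in each of the 8 fits without 1 library. The eighth member, Myl1, named here after its value was seen, had a log2 fold change of 0.37. Bmp10 (chr6:87428994-87437677 in GRCm38), a bone morphogenetic protein made by atrial muscle, was measured at 1.14, 0.154, 0 and 0.793 CPM in the D10 hearts and at 220, 217, 247 and 100 CPM in the D21 hearts. It had 35 reads over the D10 hearts together, none of them in replicate 3, and 16436 over the D21 hearts (log2 fold change 8.60 (SE 0.49), FDR 6.79e-05). Nppa (chr4:148000722-148002079), which encodes atrial natriuretic peptide, measured 137, 87.1, 56.9 and 76.5 CPM at D10 and 642, 851, 732 and 554 CPM at D21 (log2 fold change 2.96 (SE 0.24), FDR 0.000391). The lowest D21 heart therefore lay well above the highest D10 heart. Myl4, the atrial essential myosin light chain, went from 131 ± 46.97 to 773 ± 171 CPM (mean ± SD, n = 4), with log2 fold change 2.57 (SE 0.24), FDR 0.000481. Sln, encoding sarcolipin, an inhibitor of the calcium pump in atrial muscle, measured 46.1, 26.6, 17.8 and 23.2 CPM at D10 and 150, 221, 210 and 136 CPM at D21 (log2 fold change 2.66 (SE 0.27), FDR 0.000569). Dkk3, a secreted protein of the Dickkopf family, had the steadiest D10 level of these genes, 33.5 to 44.1 CPM, against 150 to 263 CPM at D21 (log2 fold change 2.59 (SE 0.17), FDR 0.000106).

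Genes outside that list had the same direction, most of them named for the size of their change. Mybphl, a myosin-binding protein of atrial and conduction muscle, had a log2 fold change of 3.16 (SE 0.31) and Fgf12, which modulates sodium channels, of 3.09 (SE 0.29). Tmem163, a zinc transporter, measured 1.35 to 2.97 CPM at D10 and 18.2 to 37.6 CPM at D21. Gja5, encoding connexin 40 of atrial muscle and arteries, measured 14.96, 12.2, 12.7 and 12.03 CPM at D10 and 35.3, 41.6, 47.02 and 32.1 CPM at D21 (log2 fold change 1.59 (SE 0.12), FDR 0.000289). Kcnj3 and Kcnj5, the subunits of the acetylcholine-gated potassium channel, were higher by 0.93 and 0.59 on the log2 scale, with FDR 0.00179 and 0.0037. Of 36 calcium handling and ion channel genes tested, 25 lay above 0 and 11 below, with a median of 0.08. In that list 6 passed the wider rule as higher and 1 as lower, against 5.19% and 3.66% of all genes. Without 1 library in turn, 5 or 6 passed as higher and 0 or 1 as lower. Mlana, a gene known from pigment cells, and Cd207, the langerin gene of Langerhans cells, were also called, at 4.11 and 3.52. Uts2b, a urotensin gene whose direction was fixed by the filter, had 3 reads in the D10 hearts together and 448 in the D21 hearts, a ratio of 126 per counted read with an exact 95% interval of 42.9 to 614 that covers counting error only. Myh6 and Nppb were not called. Myh6, the main cardiac myosin of the adult mouse, measured 12310 ± 1669 CPM at D10 and 11670 ± 795 CPM at D21 (log2 fold change -0.07, FDR 0.772). Nppb, another natriuretic peptide gene, measured 296 ± 23.7 and 344 ± 31.1 CPM (FDR 0.0874). Of 28 sarcomere genes tested 1, Myot, passed the wider rule, as lower (0 or 1 without 1 library in turn, and 3.66% of all genes), and the median of the list was -0.09.

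The promoters of Bmp10 and Nppa are shown because Bmp10 had the widest gap between the days and Nppa encodes atrial natriuretic peptide. Of the 8 listed atrial genes, 6 had a window of the 250 bases before the start in the RefSeq table of GRCm38.p6. Of these, 5 held a GATA motif in any of their windows, among them Myl1, which was not called. The motif is spelled AGATAA on either strand, with T also allowed as its first letter and G as its last. Of all 32851 such windows, each counted alone and not per gene, 26.5% held at least 1 and 6.40% at least 2. Capitals mark the motif in the sequences, which run 5′ to 3′ on the plus strand from chr6:87428744-87428993 for Bmp10 and chr4:148000472-148000721 for Nppa. The matched letters are a description of the sequence and no measurement of binding was made.
Bmp10: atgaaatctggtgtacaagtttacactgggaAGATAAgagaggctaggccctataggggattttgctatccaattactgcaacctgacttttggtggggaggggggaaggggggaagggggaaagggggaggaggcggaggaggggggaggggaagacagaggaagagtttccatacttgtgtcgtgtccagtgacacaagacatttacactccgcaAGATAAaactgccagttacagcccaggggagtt
Nppa: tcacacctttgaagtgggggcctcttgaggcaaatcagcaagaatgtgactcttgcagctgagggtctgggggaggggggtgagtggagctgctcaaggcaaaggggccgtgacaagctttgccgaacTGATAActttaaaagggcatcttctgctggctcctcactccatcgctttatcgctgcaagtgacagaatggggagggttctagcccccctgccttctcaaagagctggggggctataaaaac

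Some mesothelial transcripts were higher at D21 as well. Of 8 epicardial and mesothelial genes listed 7 were tested, but Msln, Lrrn4 and Upk1b, the last named for this reason, reached 10 reads in D21 hearts only, so that their direction was fixed by the filter. Of the other 4, 2 were called higher (0.77% of all genes were) and 3 passed the wider rule (5.19% of all genes did so as higher), with a median log2 fold change of 1.46. Leaving out 1 library in turn, these 4 gave 2 calls each time and 2 or 3 past the wider rule. Upk3b, an uroplakin of mesothelium, measured 0.343, 1.44, 0.450 and 1.65 CPM at D10 and 9.97, 12.3, 12.4 and 7.94 CPM at D21 (log2 fold change 3.47 (SE 0.33), FDR 0.000481). Msln, encoding mesothelin, measured 0.171, 0.461, 0.0562 and 0.397 CPM at D10 and 3.05, 4.28, 4.86 and 3.18 CPM at D21 (log2 fold change 3.81 (SE 0.35), FDR 0.000481). Upk3b was low in all D10 hearts and higher in every D21 heart. A level of 3 reads is 0.131 to 0.198 CPM in these 8 libraries. Lrrn4, a leucine-rich membrane protein of mesothelium, had a log2 fold change of 3.84 and Gpm6a, a membrane glycoprotein, of 1.51. Wt1, also expressed by epicardium, had a log2 fold change of 0.19 and was not called, and is named here after its value was seen. Summed over the list, the level was 14.3 to 19.4 CPM at D10 and 39.3 to 49.96 CPM at D21.

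These transcripts did not follow the day in the other hearts of the series, as the plot of the 24 hearts shows. In the D15 control hearts Bmp10 measured 123, 158, 171 and 0.353 CPM and Nppa 570, 791, 699 and 60.5 CPM, so that replicates 1 to 3 lay near the D21 hearts and replicate 4 near the D10 hearts. Upk3b was likewise 20.1, 13.6, 26.6 and 2.003 CPM there. In EAM hearts of D10, Bmp10 measured 136, 165, 7.13 and 182 CPM, with all 4 above the control hearts of the same day. In EAM hearts of D21 it measured 0.148, 0.218, 0.0669 and 0.276 CPM and Myl4 4.68, 3.49, 19.2 and 3.75 CPM. Upk3b measured 17.7, 6.18, 8.02 and 8.39 CPM in the D10 EAM hearts and 20.5, 0.981, 0.0669 and 6.24 CPM in the D21 EAM hearts. Summed over the lists, the D21 EAM hearts held 264.6 to 400 CPM of atrial transcripts, against 373.8 to 728 CPM in the D10 control hearts, and 20.7 to 87.7 CPM of mesothelial transcripts, above the D10 control hearts. A fit of the 4 groups of D10 and D21 tested whether the change between the days differed between EAM and control hearts. By that test the change in EAM hearts minus the change in control hearts was -4.76 for Nppa (FDR 0.000587), -8.49 for Myl4 (FDR 1.67e-05) and -2.18 for Gja5 (FDR 0.00208), all on the log2 scale. These genes were named with their change in control hearts known, and the difference subtracts that change. The 4 D21 EAM libraries carry another library code than the other 20 libraries, so library code and D21 EAM cannot be told apart. Over all genes of that fit, 127 of 15755 (0.806%) were called, 120 of them (0.762%) with the lower change in EAM, and 138 (0.876%) had an FDR under 0.01.

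**Figure D2:**
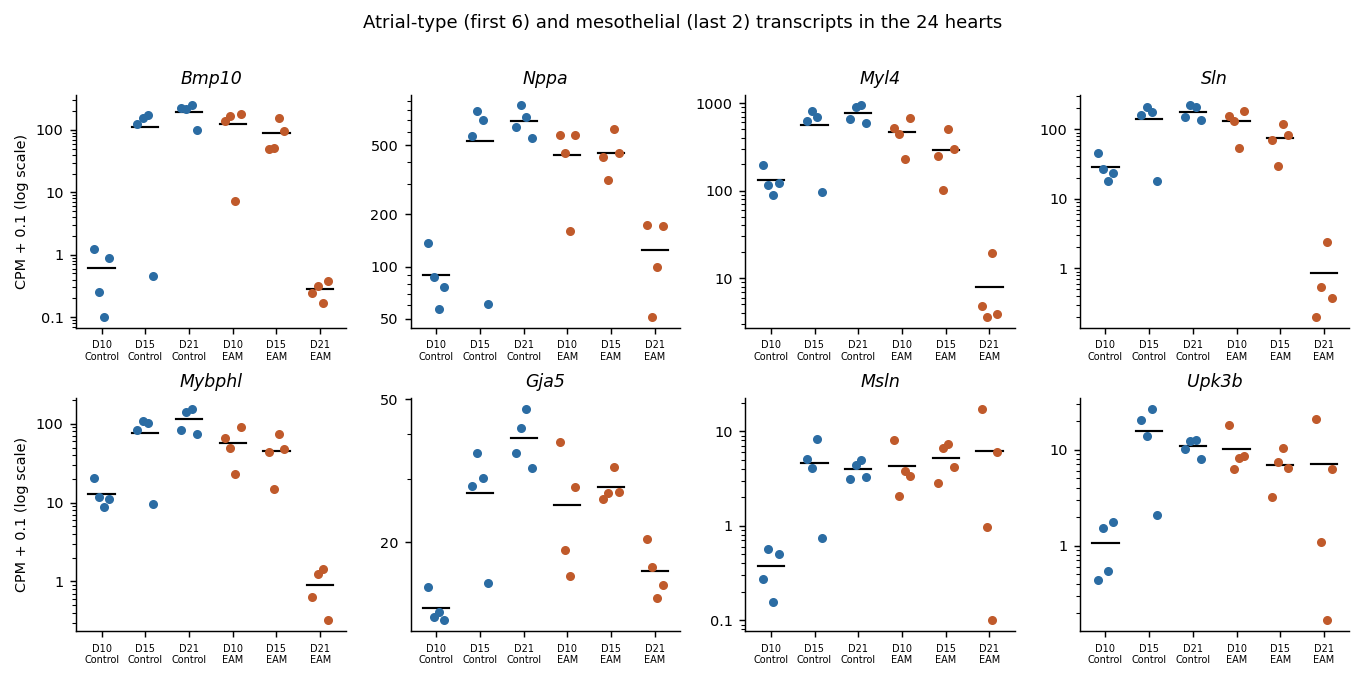
CPM + 0.1 on a log axis for 6 atrial-type and 2 mesothelial genes, with 1 point per heart in each of the 6 groups (control blue, EAM orange, 4 hearts a group) and a bar at the mean CPM. Among the control hearts, those of D10 and D15 replicate 4 lie together at the low end, and those of D21 at the high end with D15 replicates 1 to 3.

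Scd1, Plin1 and Atp2a1 were also low in D15 control replicate 4. Scd1, a fatty acid desaturase abundant in adipose tissue, was called higher, from 33.6, 35.9, 30.9 and 42.4 CPM at D10 to 102, 232, 95.4 and 70.02 CPM at D21 (log2 fold change 1.81 (SE 0.32), FDR 0.00816), and measured 112, 105, 128 and 37.8 CPM in the D15 control hearts. Its call was kept without D21 replicate 2 or 4 and lost without each other library in turn. Plin1, a lipid droplet protein of adipocytes, measured 0.914, 1.999, 1.24 and 1.72 CPM and 4.37, 8.02, 3.81 and 2.61 CPM (log2 fold change 1.68 (SE 0.37), FDR 0.0218), and 4.95, 6.56, 6.32 and 1.001 CPM in the D15 control hearts. Retn and Cfd, adipokine genes, were higher by 1.15 and 1.24 on the log2 scale (FDR 0.0301 and 0.0437). Of 9 white adipocyte markers tested, 3 passed the wider rule as higher and 3 as lower (5.19% and 3.66% of all genes, and 0 to 3 each way without 1 library in turn), and the summed level of the list was 5308 to 6588 CPM at D10 and 4361 to 4896 CPM at D21. Of 10 skeletal muscle markers listed 3 were tested, with a median of 0.25, and 1 was called higher, as were 0.77% of all genes. This was Atp2a1, the calcium pump of fast skeletal muscle, at 2.48, with 1.41 CPM in D15 control replicate 4 and 6.83 to 9.92 CPM in the other D15 control hearts. The call of Atp2a1 was lost without D10 replicate 2, 3 or 4 or D21 replicate 1 or 2. The part of the sampled portion in these differences was not tested.

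Platelet transcripts were lower at D21. Of 9 platelet and megakaryocyte genes listed 8 were tested, but Treml1 reached 10 reads in D10 hearts only, so that its direction was fixed by the filter. Of the other 7, 5 were called lower, against 0.292% of all genes, 6 passed the wider rule, against 3.66%, and all 7 lay below 0, with a median log2 fold change of -2.67. Gp9 (chr6:87778072-87779768), part of the platelet receptor for von Willebrand factor, measured 2.57, 3.54, 11.01 and 3.77 CPM in the D10 hearts and 0.254, 0.240, 0 and 0.666 CPM in the D21 hearts (log2 fold change -4.19 (SE 0.70), FDR 0.00694). Ppbp, the platelet basic protein chemokine, measured 13.2, 13.9, 48.5 and 18.7 CPM at D10 and 2.44, 1.92, 0.482 and 2.66 CPM at D21 (log2 fold change -3.67 (SE 0.53), FDR 0.0037). Itga2b, the platelet fibrinogen receptor subunit, measured 11.1, 12.8, 36.97 and 14.2 CPM at D10 and 2.39, 2.31, 1.05 and 2.82 CPM at D21 (log2 fold change -3.14 (SE 0.44), FDR 0.00337). In all 3 genes D10 replicate 3 was the highest heart by far and the D21 hearts lay below every D10 heart. Clec1b, the platelet podoplanin receptor, also fell, with a log2 fold change of -2.54, and Treml1, a receptor of platelet granules, had -3.89. Genes outside the list with the same direction were Tubb1, the platelet tubulin (-3.52), Gp5, a glycoprotein of the same receptor that likewise reached 10 reads in D10 hearts only (-3.04), Nrgn, neurogranin (-2.62), and Tmem40 (-2.60). F5, which encodes coagulation factor V, had a log2 fold change of -3.22. The summed level of the list was 67.1 to 169 CPM at D10 and 14.6 to 25.97 CPM at D21.

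Without 1 library in turn, 5 or 6 of these 7 platelet genes passed the wider rule. Without D10 replicate 3, 5 of them were called, whereas without D21 replicate 1, 2 or 3 edgeR called 0 and 5 or 6 passed the wider rule. These transcripts were also low in D15 control hearts, where Gp9 measured 0.177 to 0.295 CPM and Itga2b 1.72 to 2.89 CPM, D15 replicate 4 included. The D10 EAM hearts measured 3.75 to 6.12 CPM for Gp9 and 14.6 to 28.7 CPM for Itga2b, within the range of the D10 control hearts. From D10 to D21 in EAM hearts, Gp9 changed by -2.79 and Treml1 by -3.26 on the log2 scale (FDR 0.00925 and 0.00172), and the difference from the change in controls was 1.41 and 0.63 (FDR 0.52 and 0.752). Of 7 red cell genes tested 0 passed the wider rule by edgeR and 1 by DESeq2. As lower, edgeR passed 3.66% of all 15063 genes and DESeq2 passed 880 of them. Of the 7 red cell genes 3 had an unadjusted p under 0.05, against 12.1% of all genes as lower. All 7 lay below 0, with a median of -0.59.

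Acute phase transcripts were lower at D21. All 11 genes tested, of 19 listed, lay below 0, 8 passed the wider rule as lower (3.66% of all genes did) and 3 were called lower (0.292%), with a median log2 fold change of -1.17. Serpina3n, a secreted protease inhibitor of the acute phase, measured 142, 165, 207 and 45.3 CPM at D10 and 29.1, 27.2, 15.8 and 31.5 CPM at D21 (log2 fold change -2.43 (SE 0.39), FDR 0.00559). Saa3 (chr7:46711998-46715700), a serum amyloid A made outside the liver, measured 41.9, 37.97, 19.6 and 0.793 CPM at D10 and 0.712, 0.817, 0.350 and 0.820 CPM at D21 (log2 fold change -5.23 (SE 0.92), FDR 0.00838). Its groups overlapped because D10 replicate 4 was as low as the D21 hearts, and that heart was also the lowest of its day for Serpina3n, Lcn2 and Mt2. Lcn2, a lipocalin that binds bacterial iron carriers, had log2 fold change -2.51 (SE 0.50), FDR 0.015. Lrg1, a glycoprotein of the same response, went from 88.1 ± 13.9 to 48.97 ± 5.76 CPM (log2 fold change -0.84 (SE 0.11), FDR 0.00283). Without D10 replicate 4, 6 acute phase genes were called and 10 passed the wider rule, while without each D21 heart, or without D10 replicate 2 or 3, edgeR called 0 and 5 to 8 passed it. In D15 control hearts Saa3 measured 0.730 to 1.24 CPM and Serpina3n 16.1 to 39.99 CPM, and in EAM hearts of D21 18.9 to 284 and 120 to 462 CPM.

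Some glucocorticoid-responsive genes, the metallothioneins Mt1 and Mt2 among them, were lower as well. All 14 genes of the glucocorticoid-responsive list lay below 0, 7 passed the wider rule (3.66% of all genes did as lower) and 3 were called (0.292%), with a median of -0.65. Without 1 library in turn, 4 to 9 passed the wider rule and 1 to 4 were called, fewest without D10 replicate 2 or D21 replicate 1 or 3. Mt2, a metallothionein that binds zinc and copper and is raised by metals, glucocorticoids and inflammation, measured 61.3, 74.3, 64.2 and 20.9 CPM at D10 and 9.21, 12.5, 5.30 and 9.94 CPM at D21 (log2 fold change -2.58 (SE 0.36), FDR 0.00337). Its neighbour Mt1 measured 170, 187, 194 and 124 CPM at D10 and 71.7, 94.9, 59.7 and 83.2 CPM at D21 (log2 fold change -1.12 (SE 0.16), FDR 0.00337). For both genes the D21 hearts lay below all D10 hearts, and D10 replicate 4 was the lowest of its day. Zbtb16, a transcription factor strongly raised by glucocorticoids, had a log2 fold change of -1.27 (FDR 0.0011). In the EAM hearts of D10, D15 and D21, Mt2 measured 72.97 to 270, 207 to 285 and 51.7 to 259 CPM.

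The windows before Mt1 and Mt2 are shown because both genes were called and lie next to each other on chromosome 8. The metal response motif, spelled TGCACNC or TGCGCNC on either strand, occurs in 21.4% of the 32851 RefSeq windows of 250 bases at least 1 time and in 1.26% at least 3 times. It matched 1 time before Mt1, at chr8:94178839-94179088, and 3 times before Mt2, at chr8:94172368-94172617, both on the plus strand of GRCm38.p6. Capitals mark the matches, which say nothing about binding in these hearts.
Mt1: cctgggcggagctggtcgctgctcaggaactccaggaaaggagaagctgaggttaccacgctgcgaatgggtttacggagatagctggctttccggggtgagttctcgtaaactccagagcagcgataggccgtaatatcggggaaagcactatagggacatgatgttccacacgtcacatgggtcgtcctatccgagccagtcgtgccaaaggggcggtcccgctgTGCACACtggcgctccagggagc
Mt2: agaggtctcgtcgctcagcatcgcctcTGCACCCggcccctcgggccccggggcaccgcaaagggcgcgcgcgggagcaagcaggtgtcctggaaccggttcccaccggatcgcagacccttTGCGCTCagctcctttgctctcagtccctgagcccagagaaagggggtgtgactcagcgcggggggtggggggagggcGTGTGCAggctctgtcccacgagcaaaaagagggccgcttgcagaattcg

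**Figure D3:**
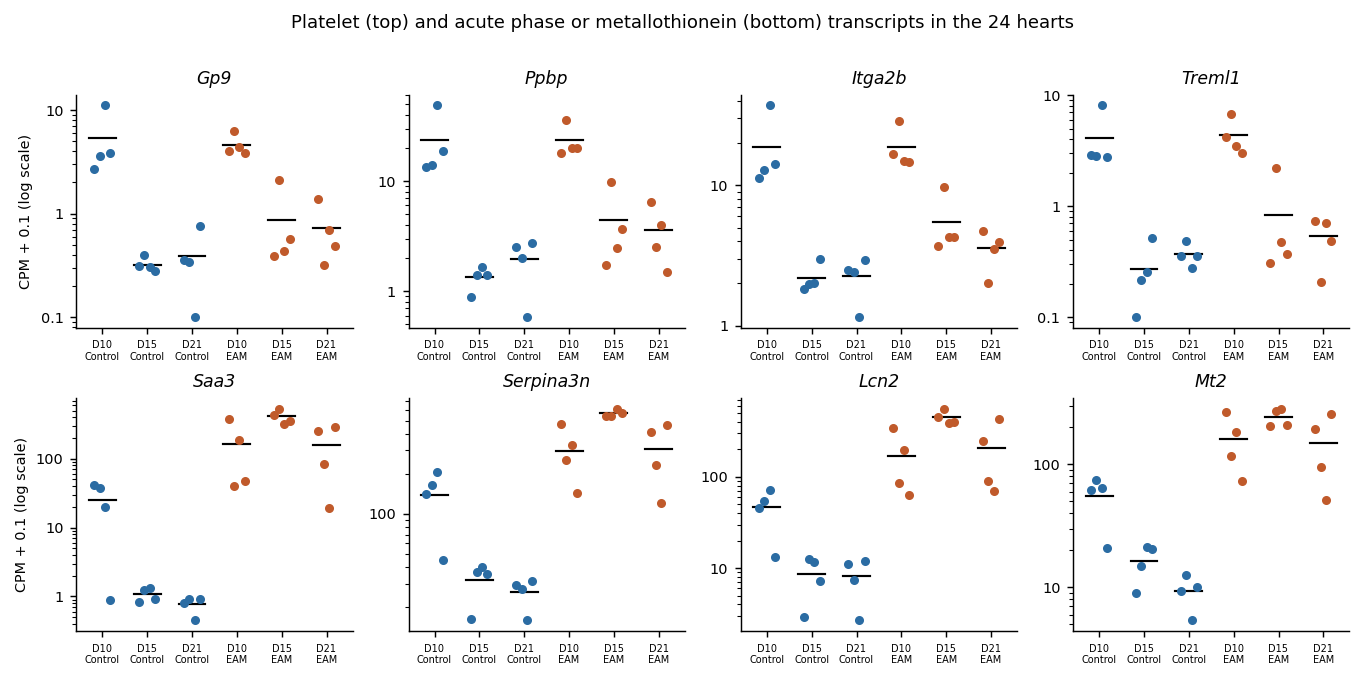
CPM + 0.1 on a log axis for 4 platelet genes and 4 acute phase or metallothionein genes, with 1 point per heart in each of the 6 groups and a bar at the mean CPM. The platelet genes are higher in D10 hearts of both treatments than in most later hearts, while Saa3, Serpina3n, Lcn2 and Mt2 are low in D15 and D21 control hearts and in D10 control replicate 4, and higher in D10 control replicates 1 to 3 and in every EAM heart.

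Neutrophil and chemokine transcripts were lower at D21 for part of their lists. Of 11 neutrophil genes tested 5 passed the wider rule as lower by edgeR (3.66% of all genes did), with a median of -1.51. DESeq2 passed 3 of the 11 as lower, and 880 of all genes tested. Cxcr2, the chemokine receptor of neutrophils, measured 9.37, 9.53, 14.2 and 9.79 CPM at D10 and 4.27, 1.49, 0.263 and 4.25 CPM at D21 (log2 fold change -2.09 (SE 0.46), FDR 0.0223). Csf3r, the receptor of granulocyte colony-stimulating factor, had log2 fold change -1.38 (SE 0.28), FDR 0.0149, and the neutrophil genes Mmp8, a collagenase, and Retnlg, a resistin-like peptide, had log2 fold changes of -2.03 and -2.01 (FDR 0.0419 and 0.0465). The summed level of the neutrophil list was 154 to 298 CPM at D10 and 15.9 to 139 CPM at D21. Without 1 library in turn, 1 to 5 members passed. Prok2, a secreted peptide of neutrophils, was called at -3.20. Of 31 chemokine genes tested 8 passed as lower, against 3.66% of all genes and 3 to 12 without 1 library in turn, among them the monocyte attractants Ccl12 (9.59, 11.4, 12.4 and 4.10 CPM at D10 and 2.24, 2.88, 1.45 and 4.05 CPM at D21), Ccl9 (log2 fold change -1.34) and Ccl6 (-1.14), and Cxcl14 (-0.96). Of 23 complement genes tested 2 passed as higher and 3 as lower (5.19% and 3.66% of all genes), with a median of -0.50, and without 1 library in turn 0 or 1 passed as higher and 1 to 10 as lower. Cfd and C2, a protease of the classical pathway (0.64, FDR 0.0499), were higher. C5ar1, the complement C5a receptor, and C1qc, a subunit of C1q made by macrophages, had log2 fold changes of -0.98 and -0.56 (FDR 0.0129 and 0.0451).

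Markers of other leukocytes mostly did not pass the wider rule, which 5.19% of all genes passed as higher and 3.66% as lower. Ptprc, the leukocyte antigen CD45, measured 38.6, 33.9, 28.5 and 23.9 CPM at D10 and 26.7, 18.4, 15.02 and 29.4 CPM at D21 (log2 fold change -0.48, FDR 0.168). Of 15 macrophage markers tested 0 passed the wider rule by edgeR and 4, all lower, by DESeq2, which passed 880 of all 15063 genes as lower. Of the 15, 8 had an unadjusted p under 0.05 as lower, against 12.1% of all genes, and the list median was -0.43. Without D10 replicate 4, 6 macrophage markers passed by edgeR as lower, and without each other library 0 to 2. Of 7 T cell markers tested 0 passed by edgeR and 1 by DESeq2, and 1 had an unadjusted p under 0.05. Igkc, the immunoglobulin kappa constant region, fell from 1.58 ± 0.297 to 0.766 ± 0.157 CPM (log2 fold change -1.04 (SE 0.23), FDR 0.0212), the only B cell marker of 5 that passed. All 5 mast cell and eosinophil markers tested lay above 0, with a median of 0.49, and Kit, a receptor of mast cells and progenitors, passed as higher (0.49, FDR 0.031). Of 7 dendritic cell markers tested 5 lay above 0, with a median of 0.25, and Siglech, a lectin of plasmacytoid dendritic cells, passed as higher (1.28, FDR 0.0458). The T cell, B cell, mast cell and dendritic cell lists each gave 0 or 1 past the rule by edgeR when 1 library was left out.

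Stress genes were lower in part. Junb, an immediate early transcription factor, measured 55.7, 51.8, 47.1 and 39.01 CPM at D10 and 32.96, 28.9, 23.8 and 25.5 CPM at D21 (log2 fold change -0.80 (SE 0.12), FDR 0.00477), and Myc, a growth-promoting transcription factor, had -0.94 (FDR 0.0172). Of 23 immediate early genes 5 passed the wider rule, all lower (3.66% of all genes passed as lower), and without 1 library in turn 1 to 5 did, fewest without D10 replicate 3. Of 15 chaperones and folding enzymes of the endoplasmic reticulum, 4 passed as lower (1 to 5 without 1 library in turn, and 3.66% of all genes) and all 15 lay below 0, with a median of -0.25. Herpud1, which takes part in degradation of misfolded proteins, had log2 fold change -0.67 (SE 0.12), FDR 0.00961, and Hspa5, the main chaperone there, had log2 fold change -0.35 (SE 0.09), FDR 0.0369. Of 15 genes of the integrated stress response tested 8 lay above 0 and 7 below, with a median of 0.0061, and 1 passed as higher and 2 as lower (0 or 1 and 2 or 3 without 1 library in turn). The higher was Aldh18a1, an enzyme of proline synthesis (0.37, FDR 0.0333). Of the lower, Gdf15, a secreted stress hormone, was called, from 5.25, 6.56, 6.35 and 6.88 CPM at D10 to 3.15, 3.36, 1.88 and 2.71 CPM at D21 (log2 fold change -1.17 (SE 0.17), FDR 0.00406). Chac1, a glutathione-degrading enzyme induced by stress, was called at -1.20.

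Fatty acid oxidation genes were lower at D21 by small but even amounts. Of 27 tested, 18 passed the wider rule as lower, against 3.66% of all genes, 26 lay below 0 and 22 had no overlap between the groups with D21 lower, against 7.83% of all genes. No member reached 2-fold. Their median was -0.26. Decr1, the dienoyl-CoA reductase of mitochondria, measured 515, 509, 512 and 510 CPM at D10 and 389, 385, 379 and 367 CPM at D21 (log2 fold change -0.42 (SE 0.04), FDR 0.000569). The D10 hearts lay within a few CPM of each other, and the D21 hearts lay lower by about the same amount. Cpt2, which passes long-chain fatty acids into oxidation in the mitochondrion, measured 314, 334, 311 and 325 CPM and 254, 253, 259 and 235 CPM (log2 fold change -0.35 (SE 0.05), FDR 0.00337). The enoyl-CoA isomerases Eci1 and Eci2 had log2 fold changes of -0.40 and -0.31. Acot1, an acyl-CoA thioesterase outside this list and a target of the fatty acid receptor PPAR-alpha, had -0.95 (FDR 0.034). All 75 nuclear-encoded subunits of the respiratory chain tested lay below 0, but the shift was smaller, with a median of -0.17, and 10 passed, among them Cox6c of complex IV at -0.29 (FDR 0.00961). Without 1 library in turn, 8 to 18 oxidation genes and 1 to 17 respiratory chain genes passed. DESeq2 passed 23 of the oxidation genes and 37 of the respiratory chain genes as lower, and 880 of all genes tested as lower. With total counts in place of TMM, which moved the median of all genes to 0.0574, the medians of the lists were -0.20 and -0.11.

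Some genes of sterol and fatty acid synthesis were higher. Of 26 tested, 25 lay above 0 and 7 passed the wider rule as higher, against 5.19% of all genes, with a median of 0.25. With 1 library left out at a time 3 to 8 passed, fewest without D10 replicate 2. Scd2, a desaturase, measured 46.9, 42.95, 46.7 and 35.5 CPM at D10 and 86.3, 73.6, 72.99 and 63.8 CPM at D21 (log2 fold change 0.79 (SE 0.10), FDR 0.00267). Srebf2, the transcription factor that controls cholesterol synthesis, had log2 fold change 0.35 (SE 0.06), FDR 0.00537, and Acaca, the enzyme that makes malonyl-CoA, had log2 fold change 0.69 (SE 0.14), FDR 0.0144. In the D15 control hearts Scd2 measured 62.2, 64.6, 67.1 and 50.5 CPM.

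**Figure D4:**
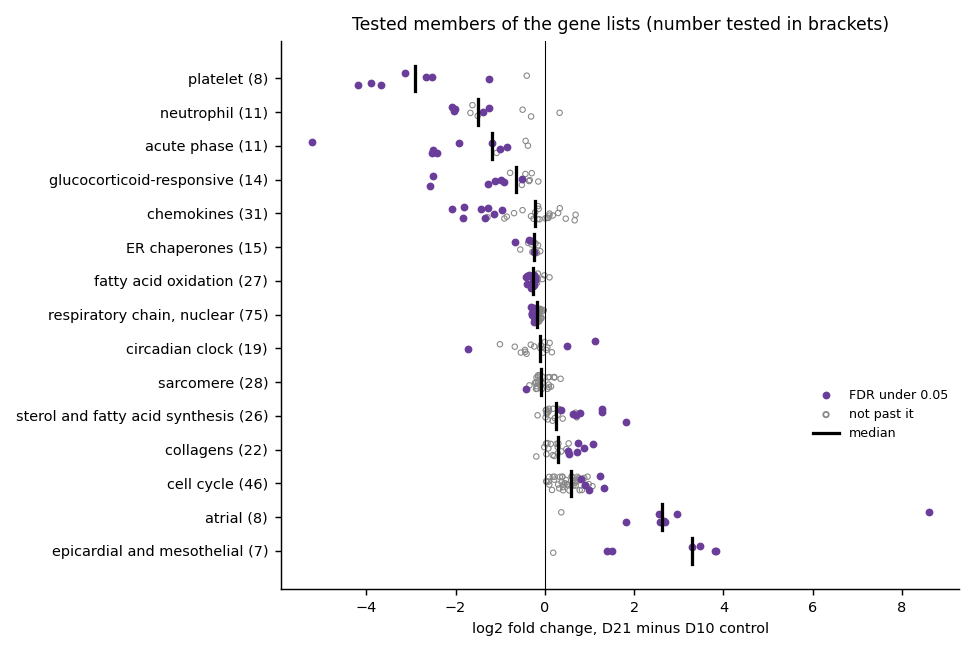
Each point is a tested member of a gene list, placed at its log2 fold change of D21 against D10 control hearts, filled where the FDR is under 0.05, with a bar at the list's median. Treml1 of the platelet list and Msln, Lrrn4 and Upk1b of the mesothelial list reached 10 reads at 1 day only. Platelet members lie mostly well below 0, while oxidation and respiratory chain genes form narrow groups just below 0.

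Some collagen and cell cycle genes were higher at D21, and other matrix genes changed in both directions. Of 22 collagen genes 6 passed the wider rule as higher (5.19% of all genes did) and 20 lay above 0, with a median of 0.29. Without 1 library in turn 3 to 10 passed, fewest without D10 replicate 2 and most without D21 replicate 2. Col4a3 and Col4a4, basement membrane collagen chains, were higher by 1.07 and 0.87 on the log2 scale (FDR 0.0111 and 0.00776). Col18a1, the endostatin precursor, measured 33.1, 32.1, 26.4 and 32.7 CPM at D10 and 46.3, 40.1, 45.3 and 48.6 CPM at D21 (log2 fold change 0.54 (SE 0.09), FDR 0.00517). Col15a1, a basement membrane collagen of vessels and muscle, had 0.75 (FDR 0.015). Of 33 other matrix genes tested 5 passed as higher and 2 as lower, against 5.19% and 3.66% of all genes (2 to 8 and 0 to 2 without 1 library in turn). Fmod, a collagen-binding proteoglycan, had log2 fold change 0.84 (SE 0.15), FDR 0.00877, and Fn1, fibronectin, Ccn2, a matricellular protein, and Tgfb3, a growth factor, had 0.53, 0.53 and 0.63. Of 20 matrix metalloproteinases and their inhibitors 2 passed as higher and 5 as lower (1 to 3 and 2 to 5 without 1 library in turn). The higher were Mmp15, a membrane-bound protease (0.43, FDR 0.00778), and Timp2, an inhibitor (0.32, FDR 0.0209). Mmp3, a matrix-degrading protease, was called lower at -1.05, and Timp4, a protease inhibitor abundant in heart, had -1.31 (FDR 0.0164). All 46 cell cycle genes tested lay above 0 with a median of 0.58, and 5 passed the wider rule, against 5.19% of all genes as higher, but without 1 library in turn that number ran from 1 to 14. Cenpf, a kinetochore protein, measured 5.54, 9.33, 6.85 and 8.53 CPM at D10 and 11.3, 13.6, 14.7 and 13.3 CPM at D21 (log2 fold change 0.81 (SE 0.15), FDR 0.0117). Pbk, a mitotic kinase, Prc1, a spindle protein, and Anln, a cytokinesis protein, had log2 fold changes of 1.32, 1.24 and 0.90. Of 12 endothelial genes tested 3 passed as higher and 2 as lower, and without 1 library in turn 1 to 4 and 0 to 2 did. Kdr, the main receptor of vascular endothelial growth factor, and Cdh5, the endothelial cadherin, were higher by 0.40 and 0.36 (FDR 0.0101 and 0.0296). Ly6c1, a surface antigen of endothelium and monocytes, and Fabp4, a fatty acid carrier of capillaries and adipocytes, were lower, with log2 fold changes of -0.58 and -0.23 (FDR 0.0323 and 0.0414).

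Clock genes differed in a few members. Of 19 tested, 3 passed the wider rule by edgeR (8.86% of all genes did), 2 higher and 1 lower, with a median of -0.10. Of these 19, 8 had an unadjusted p under 0.05, against 26.8% of all genes. DESeq2 passed 6 of the 19, and 1816 of all genes tested. Without D10 replicate 3, D21 replicate 3 or D21 replicate 4 edgeR passed 0, and without D21 replicate 1 it passed 8, 2 higher and 6 lower. Npas2, which pairs with the product of Arntl to drive the clock, measured 4.57, 5.12, 4.50 and 2.84 CPM at D10 and 5.14, 8.31, 12.9 and 11.01 CPM at D21 (log2 fold change 1.13 (SE 0.27), FDR 0.0304). Arntl, encoding BMAL1, had log2 fold change 0.49 (SE 0.12), FDR 0.0364. Per2, a repressor of that pair, measured 11.1, 13.1, 22.4 and 16.99 CPM at D10 and 10.1, 3.31, 2.98 and 3.02 CPM at D21 (log2 fold change -1.72 (SE 0.38), FDR 0.0219), and Per1 had a log2 fold change of -1.01 that did not pass (FDR 0.056). The groups of Npas2 and Per2 did not overlap, although D21 replicate 1 lay next to the D10 hearts in both.

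**Figure D5:**
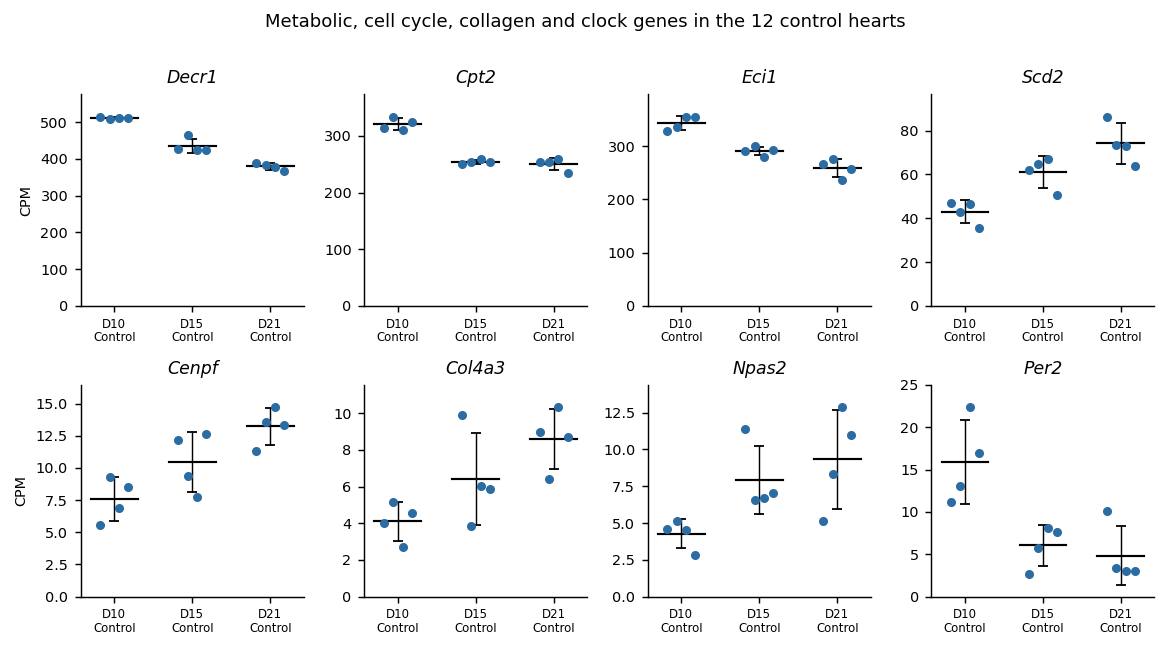
CPM of 8 genes in the 12 control hearts, with 1 point per heart, a bar at the mean and whiskers of 1 SD (n = 4 a day), and axes that start at 0. Decr1, Cpt2 and Eci1 lie lower at D21 than at D10, Scd2, Cenpf and Col4a3 lie higher, and Npas2 and Per2 spread widely within a day.

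The D15 control hearts were compared with both days. By edgeR's quasi-likelihood test, D21 against D10 gave 152 calls among 15311 genes (0.993%), D15 against D10 gave 9 (0.0588%), all lower at D15, and D21 against D15 gave 0 (0.0%). Between D15 and D21, 1534 genes had an unadjusted p under 0.05. With limma-voom the 3 contrasts gave 73, 0 and 0 calls in the same order. Without D21 replicate 3, edgeR gave 1 call for D21 against D10. The 3 contrasts share hearts. Without D15 replicate 4, the D15 heart with low atrial transcripts, D15 against D10 gave 82 calls (0.537%), 68 of them higher at D15 (0.445%), and D21 against D15 still gave 0 (0.0%), with 1039 genes at an unadjusted p under 0.05. On the log2 scale D15 differed from D10 by -4.51 in Gp9, -2.12 in Serpina3n, -1.75 in Mt2, -0.22 in Decr1, -0.32 in Cpt2, 0.66 in Col4a3 and 0.48 in Cenpf. D15 control replicate 4 measured 35.3 CPM for Serpina3n, 424 CPM for Decr1 and 253 CPM for Cpt2, each within or next to the range of the other D15 control hearts (16.1 to 39.99, 425 to 464 and 251 to 259 CPM).

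Some abundant genes varied widely within a day. Gapdh, often used as a reference, measured 44.1, 13.8, 100 and 34.8 CPM at D10 and 22.1, 9.27, 178 and 188 CPM at D21, with overlapping groups. Many processed copies in the genome share its sequence, so its level is uncertain. The adjacent mitochondrial genes mt-Co2 and mt-Atp8 measured 252 to 2013 and 10.2 to 231 CPM at D10 and 24.6 to 353 and 1.88 to 39.05 CPM at D21, again with overlap (FDR 0.0905 and 0.0998). Actb, another reference gene, measured 579 ± 72.2 and 572 ± 52.6 CPM (FDR 0.947).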

How the data were processed

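RNA of 24 hearts was read as pairs of 75 bp. The authors aligned them to GRCm38 with HISAT2 2.0.4, removed duplicates with Picard, counted reads per Ensembl gene with featureCounts after a strand-specific library preparation, and deposited these counts without normalization. Samples were grouped by their labels. The members and lists were chosen with earlier results of these data known. Genes named are the 12 largest changes per direction among called, non-overlapping genes of at least 1 CPM, the clock genes, up to 4 passing members of each list, and 7 reference genes, with exceptions stated, and 1 of them is not reported here.

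The counts were tested with edgeR 4.0.16 in R 4.3.3 (TMM, quasi-likelihood test, Benjamini-Hochberg adjustment), limma 3.58.1 and DESeq2 1.42.0, and plotted in Python 3.11.15 with matplotlib 3.10.9. Fold changes come from the 8 hearts and CPM from all 24. Symbols and positions are those of GENCODE M21, and promoters those of RefSeq GRCm38.p6. Each sample is the heart of 1 mouse. Alternatives were other tests, scalings, filters, sets of hearts, a replicate block and each library left out. Deviations of same-numbered D10 and D21 hearts correlated at -0.0134, -0.059, -0.1755 and -0.1995, so the numbers were not taken as pairs. In simulated counts for this comparison, run on 14956 genes, 97.9% of 96 genes with a 4-fold and 44.4% of 99 genes with a 2-fold change were called, with 2 false calls. EdgeR passed 83.8% of the 2-fold genes at an FDR under 0.05. Libraries of 16578239 to 22859202 reads set the precision, and intervals and floors cover counting error only. Columns of no sample were not used.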

Additional observations from a re-analysis of the deposited data

Results flagged for a closer look

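For 18 of the 112 genes named, the change from D10 to D21 in EAM hearts differed from that in control hearts at an FDR under 0.01 in the fit of 16 hearts, as it did for 138 of all 15755 genes (0.876%). Many of the 112 were named for their change in the same control hearts, which this difference subtracts. Their share therefore cannot be set against that of all genes. The difference, EAM minus control on the log2 scale, was -17.92 for Bmp10, -4.76 for Nppa, -8.49 for Myl4, -10.17 for Sln, -4.27 for Dkk3, -9.32 for Mybphl, -7.50 for Fgf12, -2.18 for Gja5, -8.43 for Tmem163, -5.59 for Mlana and -8.61 for Cd207, and -14.22 for Uts2b, which had 3 reads in the D10 control hearts. It was -2.61 for Scd1, -5.82 for Plin1, -5.34 for Retn and -5.44 for Atp2a1. The clock genes Arntl and Npas2 gave -1.63 and -2.16. Several of these genes are close to 0 reads in D21 EAM hearts, and such fitted values depend on the prior count. D21 EAM libraries differ from the rest in their library code, which cannot be told apart from the group.

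A heart far from the other 3 of its group was found in 19 of 236 groups tested by Dixon's test, where chance gives about 1 in 20. D10 replicate 3 was high in 7 of them, at 11.01 CPM for Gp9, 7.978 for Treml1, 48.54 for Ppbp, 36.97 for Itga2b, 10.39 for Clec1b, 12.08 for F5 and 14.21 for Cxcr2, and low for Col18a1 at 26.41 CPM. D10 replicate 4 was high for Kcnj3 at 96.53 CPM and for mt-Co2 at 2013 CPM, and low for Ccl6 at 30.88 CPM. D10 replicate 1 was high for Dkk3 at 44.15 CPM and low for Retn at 0.514 CPM, and D10 replicate 2 held the 3 reads of Uts2b, 0.1537 CPM. Of the D21 hearts, replicate 1 was high for Per2 at 10.07 CPM, replicate 2 was low for Kit at 14.46 CPM, and replicates 2, 3 and 4 were low for Col4a4 at 13.98, Cox6c at 342.7 and Myh6 at 10490 CPM. What set these hearts apart was not tested.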

How the results depend on the processing

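Against 160 calls between D21 and D10, the likelihood ratio test gave 299, DESeq2 254, an FDR under 0.05 with a 2-fold change 304, and an FDR under 0.01 with no fold limit 340. A fit of all 24 hearts, which shares their spread, gave 44, and a replicate block 70. A fit of 12 control hearts with the atrial level as a covariate, chosen after the data were seen, gave 0 (1093 at an unadjusted p under 0.05). That level itself differs between the days. The 1334 genes at an FDR under 0.05 became 220 in 24 hearts, 545 with the replicate block and 0 with the covariate. Without 1 library in turn, the calls ran from 56 to 150 and the genes at an FDR under 0.05 from 557 to 1454. In the fit of 12 hearts, D21 against D10 ran from 1 (without D21 replicate 3) to 182 and was 73 by limma-voom, D15 against D10 ran from 0 to 82 and was 0 by limma-voom, and D21 against D15 stayed at 0. The 127 calls for the difference between EAM and control ran from 79 to 170. With total counts in place of TMM the calls split into 125 higher and 38 lower, and the genes at an FDR under 0.05 into 1231 and 353, against 782 and 552. The other tests, scalings and filters gave 110 to 194 calls.

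With the covariate, log2 fold changes turned to -0.13 for Mybphl, -0.39 for Fgf12, -0.0159 for Tmem163, -0.16 for Mlana, -0.68 for Plin1, -0.28 for Retn, -0.27 for Atp2a1, -0.086 for Mbp and -0.56 for Uts2b, and list medians to -0.28 (white adipocyte), -0.17 (Schwann cell) and -0.27 (skeletal muscle), with changes of sign near 0 also for the fetal gene (0.11 to -0.08), lymphatic (-0.09 to 0.05), protease and inhibitor (-0.01 to 0.11) and integrated stress (0.01 to -0.08) lists. The covariate is built from the atrial list, whose level differs between the days. With it, the median of the 4 mesothelial genes not tied to 1 day by the filter was 0.29 (1.46 without the covariate). That of the 7 such platelet genes was -1.32 (-2.67 without the covariate). The medians with it were -1.45 for acute phase and -0.23 for oxidation genes. The T cell list median, -0.20, ran from -0.38 to 0.24 without 1 library, positive without D10 replicate 1. The skeletal muscle median was -0.07 without D21 replicate 2. Of the named genes not called, Actb ran from -0.07 to 0.07 over the alternatives without the covariate. Myh6, at -0.16 to -0.01 over these, changed sign with the covariate only. The cause of these changes was not tested, and 3 reads or fewer per heart limit folds of genes near 0 at 1 day.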

Other observations

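Other gene groups had smaller differences between D10 and D21, where 5.19% of all genes tested passed an FDR under 0.05 as higher and 3.66% as lower, and 14.7% and 12.1% reached an unadjusted p under 0.05. Genes of glycolysis and lactate lay mostly below 0, 22 of 24, with a median of -0.08, and 3 passed an FDR under 0.05 by edgeR (1 to 4 without 1 library in turn), led by Slc16a3, a lactate exporter, at -0.74 (FDR 0.00339). All 13 mitochondrially encoded proteins lay below 0 with a median of -0.36, and 0 passed by edgeR, 6 by DESeq2, with 10 at an unadjusted p under 0.05. As lower, DESeq2 passed 880 of all genes tested. Of 63 cytosolic ribosomal protein genes 59 lay below 0 with a median of -0.14, and 0 passed by edgeR, 3 by DESeq2, with 20 at an unadjusted p under 0.05. Of 15 heat shock genes 2 passed as lower (0 to 4 without 1 library in turn), Dnajb1, a cochaperone, at -0.40 (FDR 0.0403) and Hspd1, a mitochondrial chaperone, at -0.18 (FDR 0.0475). Klf15, a transcription factor raised by glucocorticoids and fasting, fell from 80.9 ± 11.99 to 56.8 ± 9.23 CPM (mean ± SD, n = 4, FDR 0.0382).

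Antigen presentation and interferon genes were mostly not past the test. All 16 MHC class I genes lay above 0 with a median of 0.18, and 0 passed by edgeR, 1 by DESeq2, with 4 at an unadjusted p under 0.05. As higher, DESeq2 passed 936 of all genes tested. Of 13 interferon-inducible GTPases tested 12 lay above 0, with a median of 0.40. Among them 8 had an unadjusted p under 0.05 as higher, against 14.7% of all genes. Only Gbp11 passed by edgeR, at 1.11 (FDR 0.0381), and 0 to 2 did without 1 library in turn. Of 11 MHC class II genes tested 10 lay above 0 with a median of 0.40, 0 passed and 4 had an unadjusted p under 0.05. Of 30 type I interferon-stimulated genes Oasl1 passed at -0.56 (FDR 0.0271). Of 8 markers of glia and nerve tested, 5 lay above 0 and 3 below, with a median of 0.24 and a lowest value of -0.93, and 2 passed as higher (1 or 2 without 1 library in turn). Of these Mbp, myelin basic protein, measured 10.3, 7.69, 7.81 and 7.01 CPM at D10 and 12.4, 15.7, 13 and 12.3 CPM at D21 (log2 fold change 0.70, FDR 0.0107), and S100b, a glial calcium-binding protein, had 0.57 (FDR 0.0358). Of 12 smooth muscle and pericyte markers 11 lay above 0 with a median of 0.36, and Cspg4, a pericyte proteoglycan, passed at 0.37 (FDR 0.0297), with 0 to 4 past the test without 1 library in turn.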
